A study of Mus musculus with 12 samples.

Results

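The 10 genes described here are Pecam1, Cdh5, Kdr, Flt1, Flt4, Tek, Tie1, Angpt2, Vwf and Emcn, chosen by symbol as markers and growth factor receptors of blood vessel endothelium. Each matched 1 row of a table of 55401 genes, so 10 of 10 were found. RNA was sequenced from 12 libraries labelled as mouse oral tumours that grew from MTC-Q1 oral cancer cells placed orthotopically in C57BL/6 mice, and treatment began at a tumour volume of 100 mm3. There were 4 treatment groups of 3 libraries. Mice of the Ctrl-IgG group received an isotype control, labelled IgG1-Fc, and those of the aCSF1R group an antibody that blocks CSF1R, a growth factor receptor of macrophages. IL-10-Fc is interleukin-10 on an Fc carrier, and BF10 is interleukin-10 fused with the CSF1R antibody. The labels give the number of doses as 6 in the treatment protocol and as 4 in the series design, and they name one implanted cell line for all groups.

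Endothelial cells line blood and lymphatic vessels. Vascular endothelial growth factors (VEGFs) bind the receptor tyrosine kinases encoded by Flt1, Kdr and Flt4, and the angiopoietins act through Tek (the receptor Tie2) together with the related receptor Tie1. Angpt1 is known to keep vessels quiescent through Tek, whereas Angpt2, which endothelial cells make themselves, can oppose it and loosen vessels during sprouting. Pecam1 and Cdh5 encode adhesion molecules of the junctions between endothelial cells, Vwf encodes the clotting protein stored by endothelium and platelets, and Emcn encodes a surface mucin of capillaries and veins.

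The libraries differed in ways other than treatment, and these facts bear on every comparison below. Values are FPKM, fragments scaled by transcript length and sequencing depth, whose library sums ranged from 637596 to 976950. The mitochondrial share of that sum was 6.57% to 9.04% in 4 libraries (Ctrl-IgG 2, IL-10-Fc 1 and 2, BF10 1) and 2.99% to 3.61% in the other 8. Genes that mark the sex and strain of the host and the tumour epithelium split the groups into sides: Xist, made from the inactive X chromosome, reached 0.04 FPKM at most under Ctrl-IgG or aCSF1R (6 libraries) but 17.1 FPKM or more under IL-10-Fc or BF10 (6 libraries), and H2-Ea, a class II gene that C57BL/6 mice are known not to express, was at most 0.27 against at least 552.8 FPKM. Krt18, a keratin of simple epithelium, was at most 0.09 against at least 293.6 FPKM. The Y-linked gene Eif2s3y was 4.23 to 11.3 FPKM with Ctrl-IgG and aCSF1R, 0.0 to 0.05 FPKM in 5 of the IL-10-Fc and BF10 libraries and 3.29 FPKM in BF10 3, which also held 23.65 FPKM of Xist. The IL-10-Fc and BF10 libraries therefore went against the strain label, the keratin values went against a single tumour cell line in all groups, and treatment cannot be told apart from these differences in any comparison across the sides. Keratinocyte and skeletal muscle RNA was high in Ctrl-IgG 3, aCSF1R 1 and aCSF1R 2, where Krt5 was 137.8, 56.4 and 101.2 FPKM against at most 2.38 FPKM elsewhere. In bulk tissue, fewer endothelial cells and less RNA per endothelial cell cannot be told apart.

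Of the 10 genes, 6 had a promoter window in the RefSeq table of GRCm38.p6, each 300 bases long and placed around the start used by that table. The gene models used for positions below can start elsewhere. The Tie1 gene starts at 118490061 on the minus strand, so most of its window lies inside the gene. The Flt4 gene starts at 49609263 on the plus strand and its window at 49609429, so that window lies wholly inside the gene. The windows of Kdr, Flt1, Tie1 and Emcn are shown for their directions in the comparison by sample title code below. The first 3 were higher there and Emcn was lower. Between treatments they did not always move together: in IL-10-Fc against Ctrl-IgG the log2 difference was 0.70 for Flt1, -0.41 for Kdr and -0.02 for Tie1. Capitals mark GGAA, the core recognised by ETS transcription factors, of which several such as Erg and Fli1 are known regulators of endothelial genes, or its complement TTCC on the other strand. The Kdr window is chr5:75978406-75978705 on the minus strand, the Flt1 window chr5:147725962-147726261 on the minus strand, the Tie1 window chr4:118489800-118490099 on the minus strand and the Emcn window chr3:137340828-137341127 on the plus strand.
Kdr: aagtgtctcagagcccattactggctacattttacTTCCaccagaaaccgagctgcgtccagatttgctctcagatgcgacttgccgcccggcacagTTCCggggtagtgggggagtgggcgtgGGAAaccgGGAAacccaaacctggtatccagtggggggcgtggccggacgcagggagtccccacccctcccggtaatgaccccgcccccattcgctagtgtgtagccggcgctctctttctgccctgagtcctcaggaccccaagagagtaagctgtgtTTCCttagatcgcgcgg
Flt1: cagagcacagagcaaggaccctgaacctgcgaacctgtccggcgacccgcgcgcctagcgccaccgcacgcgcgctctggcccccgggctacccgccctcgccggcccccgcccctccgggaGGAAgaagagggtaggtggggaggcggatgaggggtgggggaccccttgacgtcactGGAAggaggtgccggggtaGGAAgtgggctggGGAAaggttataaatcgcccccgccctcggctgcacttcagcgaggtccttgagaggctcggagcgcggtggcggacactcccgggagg
Tie1: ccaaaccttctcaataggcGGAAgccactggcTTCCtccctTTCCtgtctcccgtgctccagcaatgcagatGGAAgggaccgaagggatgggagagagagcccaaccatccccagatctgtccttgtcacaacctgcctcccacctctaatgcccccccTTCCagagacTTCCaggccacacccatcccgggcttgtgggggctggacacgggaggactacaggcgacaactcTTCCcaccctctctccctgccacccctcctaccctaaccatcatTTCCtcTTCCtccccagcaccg
Emcn: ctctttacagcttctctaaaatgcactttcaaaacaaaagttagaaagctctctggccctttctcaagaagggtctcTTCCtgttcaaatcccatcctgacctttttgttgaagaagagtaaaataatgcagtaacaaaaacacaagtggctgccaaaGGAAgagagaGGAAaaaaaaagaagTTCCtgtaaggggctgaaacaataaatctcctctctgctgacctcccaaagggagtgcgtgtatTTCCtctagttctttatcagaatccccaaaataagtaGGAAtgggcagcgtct

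The GGAA core was present in 6 of the 6 member windows, with 9 matches in Tie1, 6 in Emcn, 5 in Kdr, 4 in Flt1 and 2 each in Tek and Flt4. The median was 4.5 matches over the members and 3 over all 32544 windows, of which 96.0% held at least 1 match, so the presence of the core is common to promoters in general. The longer form CCGGAA was found in 1 of 6 windows (Kdr) against 15.0% of all windows, and CAGGAA in 3 of 6 (Emcn, Tek and Tie1) against 30.5%; both contain the core. The GATA motif AGATAA occurred in 1 window (Tek) against 11.2% of all, the SOX motif ACAAAG in 1 window (Tek) against 18.7%, and the TATA box TATAAA in 1 window (Flt1) against 13.6%. The forkhead motif TGTTTAC, the SOX motif ACAATG and the hypoxia response motif ACGTG had no match in the 6 windows, against 3.66%, 12.4% and 19.7% of all. Both strands were searched for every motif. A match describes the letters of a window and was not tested as a binding site.

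Because FPKM is scaled by transcript length, levels can be set beside each other between genes. Averaged over the 12 libraries, Pecam1 was the highest of the 10 at 16.0 FPKM, followed by Emcn at 13.9, Cdh5 at 11.3, Angpt2 at 5.25, Flt1 at 3.96, Tie1 at 3.60, Vwf at 3.33, Kdr at 2.50, Flt4 at 1.09 and Tek at 1.02 FPKM. This order differed between groups: in IL-10-Fc the mean of Emcn (22.4 FPKM) was above that of Pecam1 (11.8), in Ctrl-IgG and aCSF1R Cdh5 (8.88 and 14.4) was above Emcn (7.20 and 8.62), and in Ctrl-IgG Kdr (2.12) and Flt1 (2.06) were closer than their spread. The range over libraries was 2.61-fold for Angpt2 and 2.99-fold for Pecam1, and it was 10.04-fold for Tie1, 12.1-fold for Tek and 14.5-fold for Flt4. Flt4 and Tek reached 1 FPKM in only 7 of 12 libraries, and the number of fragments behind their values is unknown. All 10 genes passed the filter for testing, which asked for at least 1 FPKM in at least 3 of the 12 libraries whatever their group.

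**Figure D1:**
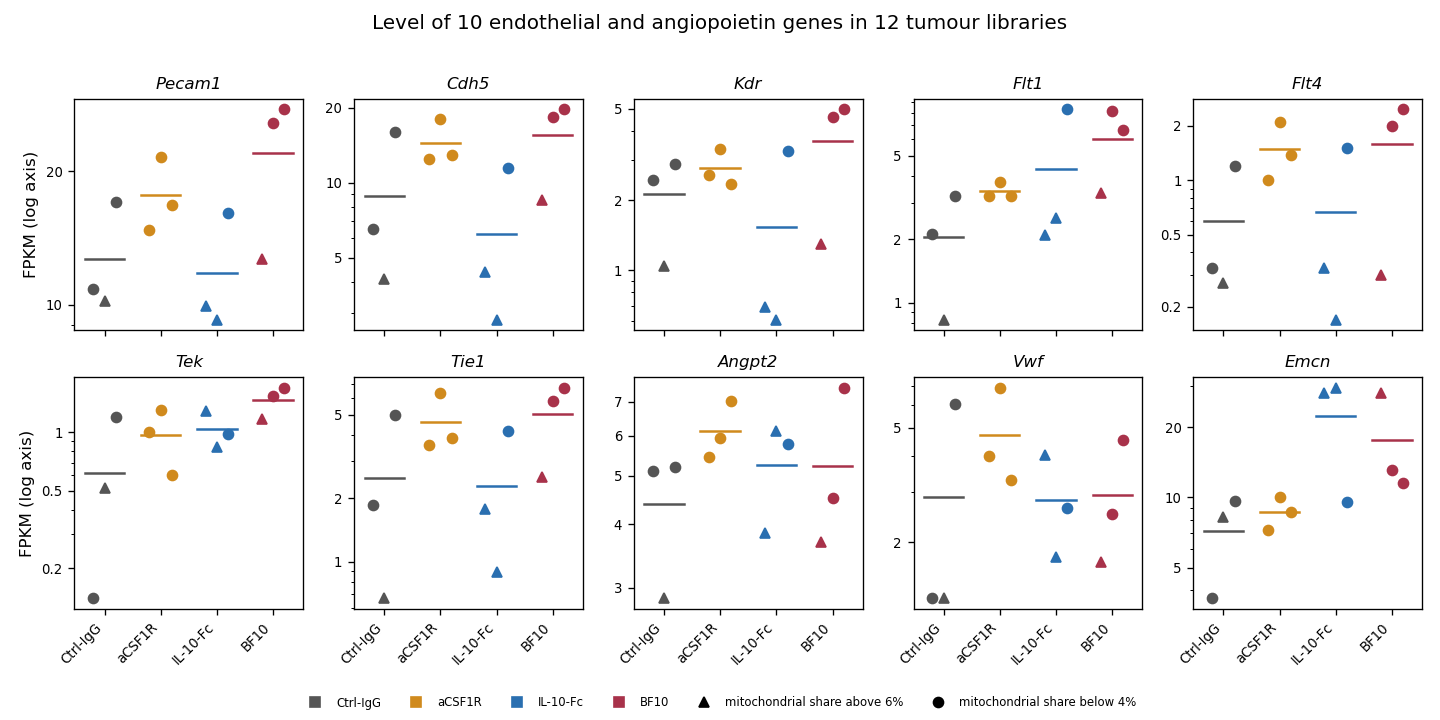
FPKM of each of the 10 genes on a log axis in every library, by treatment group; horizontal lines are group means of 3 libraries and triangles mark the 4 libraries with a mitochondrial share of at least 6.57%. For Pecam1, Cdh5, Kdr, Flt4 and Tie1 these triangles lie low in their groups, whereas for Emcn the triangles of IL-10-Fc and BF10 are the highest points at 28.1 to 29.5 FPKM.

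The junction genes set the general pattern. Pecam1 was 10.85, 10.2 and 17.1 FPKM with Ctrl-IgG 1 to 3, 14.8, 21.5 and 16.8 with aCSF1R, 9.95, 9.25 and 16.1 with IL-10-Fc, and 12.7, 25.8 and 27.6 FPKM with BF10. The highest values belonged to BF10 2 and 3, and the BF10 range overlapped that of each other group through BF10 1. Cdh5 was 6.54, 4.12 and 16.0 FPKM with Ctrl-IgG, 12.45, 17.95 and 12.9 with aCSF1R, 4.37, 2.82 and 11.5 with IL-10-Fc, and 8.50, 18.4 and 19.7 FPKM with BF10. Every aCSF1R library exceeded every IL-10-Fc library for Cdh5, and the remaining pairs of groups overlapped. The Cdh5 means (± SD, n = 3 each) were 8.88 ± 6.27 FPKM for Ctrl-IgG, 14.4 ± 3.06 for aCSF1R, 6.22 ± 4.62 for IL-10-Fc and 15.5 ± 6.14 for BF10, so the spread within groups was close to the distances between them.

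Of the VEGF receptors, Kdr, which carries most of the growth signal of VEGF-A, was 2.45, 1.04 and 2.88 FPKM with Ctrl-IgG, 2.58, 3.33 and 2.35 with aCSF1R, 0.69, 0.61 and 3.29 with IL-10-Fc, and 1.29, 4.58 and 4.96 FPKM with BF10. The 2 highest values belonged to BF10 and the 2 lowest to IL-10-Fc, and all pairs of groups overlapped. Flt1, which binds VEGF-A and placental growth factor and acts largely as a decoy, was 2.12, 0.83 and 3.24 FPKM with Ctrl-IgG, 3.21, 3.77 and 3.24 with aCSF1R, 2.11, 2.54 and 8.34 with IL-10-Fc, and 3.33, 8.19 and 6.64 FPKM with BF10. All BF10 libraries were above all Ctrl-IgG libraries, by a margin of 3.33 against 3.24 FPKM. Flt4, the receptor of VEGF-C and VEGF-D on lymphatic and sprouting endothelium, was between 0.17 and 2.47 FPKM, with its highest values in BF10 3, aCSF1R 2 and BF10 2 and its lowest in IL-10-Fc 2, Ctrl-IgG 2 and BF10 1.

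The angiopoietin receptors differed from each other. Tie1 was 1.87, 0.67 and 4.97 FPKM with Ctrl-IgG, 3.60, 6.34 and 3.86 with aCSF1R, 1.78, 0.89 and 4.19 with IL-10-Fc, and 2.52, 5.84 and 6.73 FPKM with BF10, with the same 4 low and 3 high libraries as Cdh5. Tek was 0.14, 0.52 and 1.20 FPKM with Ctrl-IgG, 1.00, 1.30 and 0.60 with aCSF1R, 1.29, 0.84 and 0.98 with IL-10-Fc, and 1.17, 1.54 and 1.70 FPKM with BF10. Its lowest value was in Ctrl-IgG 1, and the BF10 range overlapped Ctrl-IgG only through the pair 1.17 and 1.20 FPKM. The ligand Angpt2 was 5.11, 2.86 and 5.21 FPKM with Ctrl-IgG, 5.44, 5.94 and 7.01 with aCSF1R, 3.84, 6.13 and 5.76 with IL-10-Fc, and 3.70, 4.52 and 7.46 FPKM with BF10. All aCSF1R libraries lay above all Ctrl-IgG libraries for Angpt2, and no other pair of groups was separated.

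Vwf was 1.28, 1.28 and 6.05 FPKM with Ctrl-IgG, 3.99, 6.89 and 3.30 with aCSF1R, 4.02, 1.78 and 2.63 with IL-10-Fc, and 1.71, 2.50 and 4.53 FPKM with BF10. Its 2 highest values were in Ctrl-IgG 3 and aCSF1R 2, libraries with keratinocyte and muscle RNA, and every pair of groups overlapped. Platelets also hold Vwf: of 10 platelet and megakaryocyte genes, 3 (Pf4, Itga2b and Ppbp) passed the filter, and the platelet receptor genes Gp5 and Gp6 were at or below 0.08 FPKM in all libraries. The summed level of that list was 57.9 to 114.8 FPKM with Ctrl-IgG, 29.5 to 64.8 with aCSF1R, 76.0 to 198.8 with IL-10-Fc and 83.1 to 195.6 with BF10, nearly all of it Pf4. The 3 genes did not move together, so the sum describes Pf4 rather than the list. Against aCSF1R, Pf4 was called higher and Itga2b lower in IL-10-Fc (log2 differences of 2.20 and -1.69) and in BF10 (1.87 and -1.24). Ppbp was not called, at -0.03 and -0.47. In these comparisons 42.2% and 25.0% of all genes were called. The part of platelet RNA in the Vwf values was not tested.

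Emcn was 3.70, 8.24 and 9.65 FPKM with Ctrl-IgG, 7.23, 10 and 8.63 with aCSF1R, 28.1, 29.5 and 9.53 with IL-10-Fc, and 28.1, 13.1 and 11.5 FPKM with BF10. The 3 values above 28 FPKM belonged to IL-10-Fc 1, IL-10-Fc 2 and BF10 1, where Cdh5 was 4.37, 2.82 and 8.50 FPKM, its lowest values among the 6 IL-10-Fc and BF10 libraries. These 3 libraries also had a high mitochondrial share, and the Ctrl-IgG library with such a share had 8.24 FPKM of Emcn. The part of RNA quality in the Emcn values was not tested. Every BF10 library exceeded every Ctrl-IgG and every aCSF1R library for Emcn, and the IL-10-Fc range overlapped Ctrl-IgG only through 9.53 and 9.65 FPKM.

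Several libraries were low or high for most of the genes, Emcn being the main exception. Ctrl-IgG 2 was among the 4 lowest libraries for 10 of the 10 genes, and Ctrl-IgG 1 and IL-10-Fc 2 for 8 each. BF10 3 was the highest for 7 genes and among the 3 highest for 9, and BF10 2 and aCSF1R 2 were among the 3 highest for 7 each. A mean z score of the 10 genes, the average of each gene's deviation in SD units over the 12 libraries, was lowest in Ctrl-IgG 2 at -1.30 and Ctrl-IgG 1 at -0.91 and highest in BF10 3 at 1.14. The 4 libraries of high mitochondrial share ran from -1.30 to -0.31, but Ctrl-IgG 1 had a mitochondrial share of 3.00% and a score of -0.91, so a low score was found on both sides of that split. The part of RNA quality in the score was not tested.

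**Figure D2:**
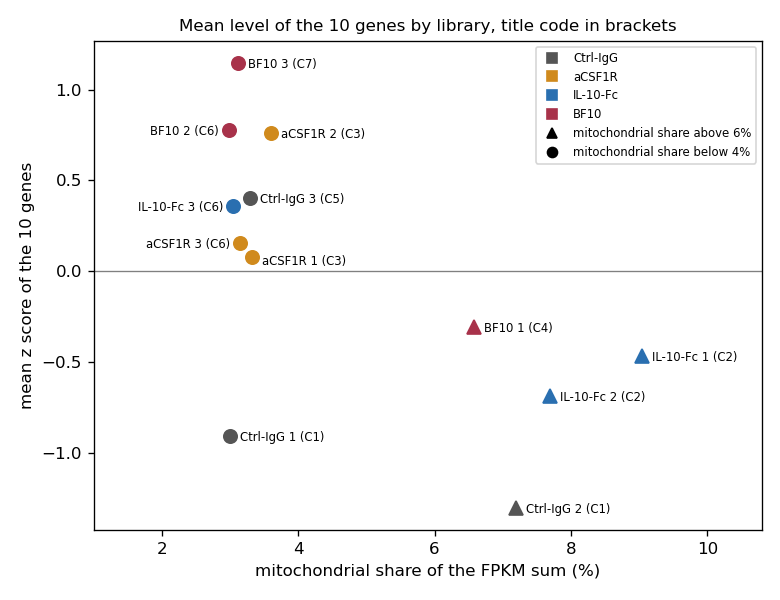
Mean z score of the 10 genes (y axis, SD units) against the mitochondrial share of the FPKM sum in percent (x axis) for the 12 libraries, coloured by treatment and labelled with the code in each sample title. The 4 libraries above 6% lie below 0, and of the 8 others Ctrl-IgG 1 alone lies below 0, at -0.91.

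Relative to Cdh5 in the same library, which sets each gene against 1 endothelial gene of that library, Tie1 varied least after Kdr, with ratios from 0.163 to 0.407 over all 12 libraries (2.51-fold; Kdr 2.47-fold). The ratio of Flt1 to Cdh5 was 0.202 to 0.324 on the Ctrl-IgG and aCSF1R side and 0.337 to 0.901 on the side of IL-10-Fc and BF10, and the sides did not overlap. The Tek ratio was 0.0214 to 0.126 against 0.0837 to 0.298, and the Vwf ratio was 0.196 to 0.384 against 0.136 to 0.920, and both overlapped. The Emcn ratio was 0.557 to 0.670 in 5 of the Ctrl-IgG and aCSF1R libraries and 2.00 in Ctrl-IgG 2, and it was 6.44, 10.5 and 3.31 in IL-10-Fc 1, IL-10-Fc 2 and BF10 1 and 0.585 to 0.830 in the other 3. The 4 high Emcn ratios were thus the 4 libraries with a high mitochondrial share, on both sides. These ratios were examined after the values were seen and carry no test. The share of all genes whose ratio to Cdh5 separates the sides was not computed. Treatment cannot be told apart from the other differences between the sides here either.

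**Figure D3:**
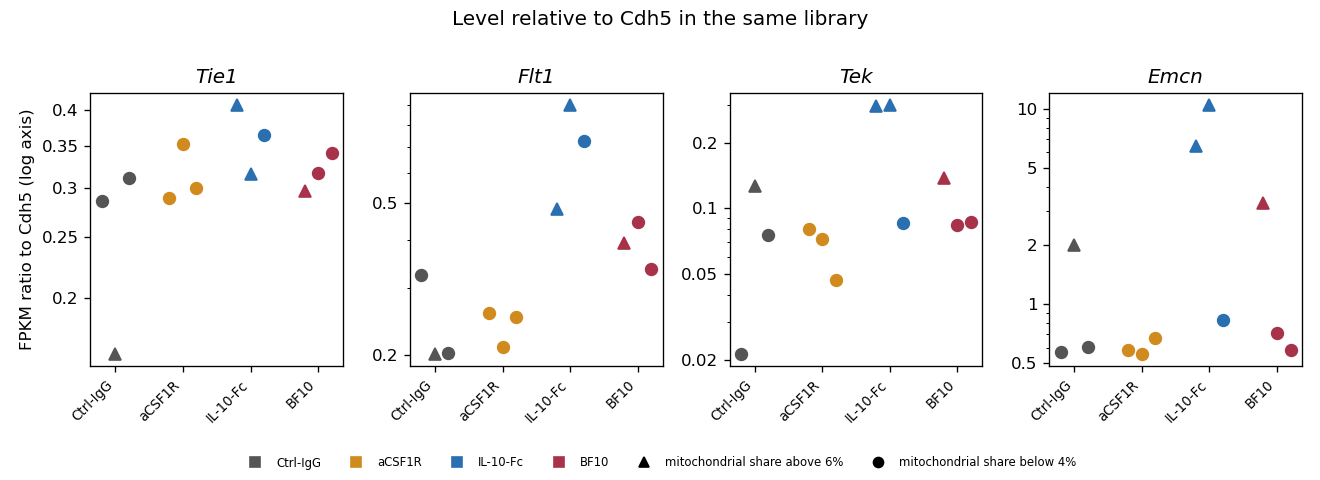
FPKM of Tie1, Flt1, Tek and Emcn divided by the FPKM of Cdh5 in the same library, on log axes, by treatment group; triangles mark the 4 libraries of high mitochondrial share. Flt1 ratios in IL-10-Fc and BF10 start at 0.337, above the highest Ctrl-IgG or aCSF1R ratio of 0.324, and the 4 triangles are the highest Emcn ratios, from 2.00 to 10.5.

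The differences between treatments were tested with limma on log2(FPKM + 1) over 15813 genes, and a gene was called at a Benjamini-Hochberg adjusted p under 0.05 with at least a 1.5-fold change. The first comparison asks what the CSF1R antibody did alone. Against Ctrl-IgG, aCSF1R gave a positive log2 difference for 10 of 10 members (Emcn turned negative without Ctrl-IgG 1), from 0.30 for Emcn to 0.84 for Tie1, and 0 were called, where 0.0% of all genes were. The limma adjusted p was 0.959 for each, and 0 members and 437 of all genes had an unadjusted p under 0.05. The median difference was 0.54 over the members (0.31 with the muscle covariate) and 0.11 over all genes. The groups did not overlap for 1 member, Angpt2 (log2 difference 0.43 ± 0.29, SE), against 14.9% of all genes. Ctrl-IgG 1 and 2 were the low libraries in this contrast, and aCSF1R 1 and 2 shared keratinocyte and muscle RNA with Ctrl-IgG 3 alone.

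For IL-10-Fc against Ctrl-IgG, Emcn was called higher, with a log2 difference of 1.45 ± 0.48 (SE, limma adjusted p = 0.0373, n = 3 and 3), and it was the only member called. Over all genes 33.7% were called, of which 30.0% were higher (49.4% with median-of-ratios scaling), so a single call among 10 lay below the background. Flt1 was 0.70 ± 0.46 higher (limma adjusted p = 0.257), and Cdh5 and Kdr had differences of -0.45 ± 0.52 and -0.41 ± 0.46, none of them past the threshold. The median was 0.09 over the members and -0.39 over all genes (0.44 and 0.01 with median-of-ratios scaling), and turned to -0.12 without Ctrl-IgG 2 and -0.08 without Ctrl-IgG 1 or IL-10-Fc 3, against 0.40 without Ctrl-IgG 3 and 0.28 without IL-10-Fc 2. In this comparison 0 members against 37.3% of all genes had groups that did not overlap. The Emcn call rested on single libraries: without Ctrl-IgG 1, IL-10-Fc 1 or IL-10-Fc 2 its limma adjusted p was 0.148, 0.132 and 0.135. Without the 4 libraries of high mitochondrial share, which left 1 IL-10-Fc library, the difference was 0.57 for Emcn and 1.36 for Flt1. With the muscle covariate Emcn was not called (limma adjusted p = 0.0948). Without the 3 libraries that held keratinocyte RNA it was 1.68 with an adjusted p of 0.0992.

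For BF10 against Ctrl-IgG, the difference was again positive for 10 of 10 members (Vwf turned negative without BF10 3, Ctrl-IgG 1 or Ctrl-IgG 2, and Angpt2 without BF10 3 or Ctrl-IgG 2) and 0 were called, against 24.9% of all genes. Flt1 had a log2 difference of 1.22 ± 0.46 (limma adjusted p = 0.0751), Emcn 1.16 ± 0.48 (0.103) and Tek 0.65 ± 0.25 (0.0820), and these 3 had an unadjusted p under 0.05. Tie1 followed at 0.90 ± 0.51, Cdh5 at 0.85 ± 0.52 and Pecam1 at 0.71 ± 0.34. The median was 0.68 over the members and -0.12 over all genes, and the groups did not overlap for 2 members, Flt1 and Emcn, against 38.4% of all genes. Leaving out BF10 1 gave calls for Flt1 and Pecam1 and leaving out Ctrl-IgG 3 gave a call for Tek. The share of all genes called in these 2 fits is not given here. Without the 4 libraries of high mitochondrial share the median over the members was 0.82.

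BF10 against IL-10-Fc is the comparison within the side that shares Xist, H2-Ea and Krt18, although BF10 3 differed from the other 5 libraries in Eif2s3y, and asks whether joining the antibody to interleukin-10 made a difference. The difference was positive for 8 of 10 members (with TPM Angpt2 and with median-of-ratios scaling Vwf changed sign), led by Cdh5 at 1.30 ± 0.52 and Tie1 at 0.92 ± 0.51 on the log2 scale, and 0 were called by limma, against 0.0126% of all genes (2 of 15813). The adjusted p was 0.478 or more, and Cdh5 and Pecam1 had an unadjusted p under 0.05. The median difference was 0.56 over the members and 0.34 over all genes, and 0 members had groups that did not overlap, against 5.18% of all genes. IL-10-Fc held 2 libraries of high mitochondrial share and BF10 held 1, and without all of these and Ctrl-IgG 2 the median over the members was 0.38. It was 0.29 with median-of-ratios scaling, 0.21 with the FPKM sum and 0.30 with the title code as a term, and leaving out 1 library moved it from 0.35 (without IL-10-Fc 2) to 0.98 (without IL-10-Fc 3), with 0.36 without BF10 2 and 0.94 without BF10 1.

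**Figure D4:**
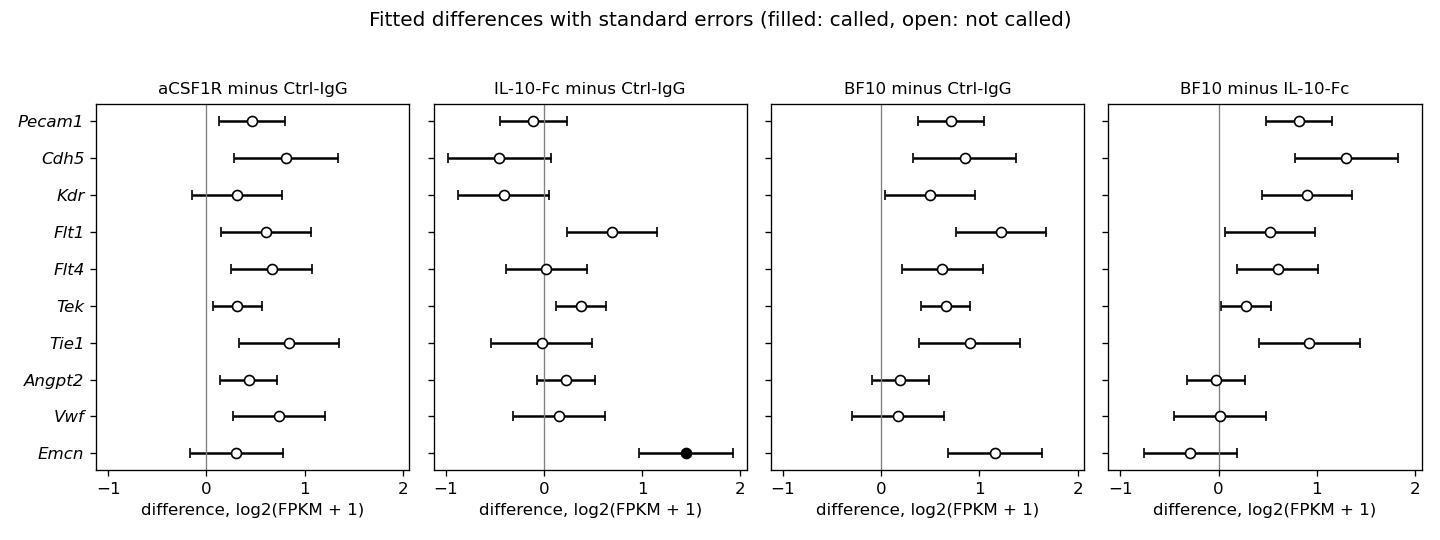
Log2 differences of the 10 genes with standard errors from the limma fit, in 4 comparisons of 3 libraries with 3; filled points passed the threshold and open points did not. Only Emcn in IL-10-Fc against Ctrl-IgG is filled, at 1.45, and the points of aCSF1R and of BF10 against Ctrl-IgG all lie right of 0.

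Against aCSF1R, which shares its libraries with the comparisons above, BF10 gave differences of either sign, with a median of 0.12 over the members and -0.21 over all genes. The median over the members was -0.04 without BF10 2, -0.11 without BF10 3 and -0.15 with the title code as a term, and it was 0.42 without BF10 1, 0.28 without aCSF1R 2, 0.04 without aCSF1R 1 or aCSF1R 3 and 0.73 with the muscle covariate. The count called was 0 members, against 25.0% of all genes, with 0 members at an unadjusted p under 0.05 in limma, and 1 member, Emcn at 0.85 ± 0.48, had groups that did not overlap, against 55.7% of all genes. IL-10-Fc against aCSF1R was negative for 7 of 10 members (with median-of-ratios scaling Angpt2 and Pecam1, and with TPM Flt1 and Tek, changed sign), with Cdh5 at -1.26 ± 0.52 (limma adjusted p = 0.0716) and Emcn the other way at 1.14 ± 0.48 (0.0725). Again 0 were called, against 42.2% of all genes (of which 26.0% were higher, and 48.5% with median-of-ratios scaling), and these 2 members had an unadjusted p under 0.05. Cdh5 was the 1 member whose groups did not overlap, against 56.1% of all genes. Without IL-10-Fc 3 the genes Cdh5, Emcn and Kdr were called, and the share of all genes called in that fit is not given here. The median was -0.58 over the members and -0.51 over all genes, and -0.03 and 0.02 with median-of-ratios scaling. Over the members it was 0.07 with the FPKM sum, 0.16 with the muscle covariate and -0.02 without the libraries of high mitochondrial share. Kdr, Flt4, Tie1 and Vwf each changed sign in some of these fits. The interaction of the antibody and the cytokine, whether BF10 differed from both single effects added, was not called for any member (0 of 10, limma adjusted p = 0.9996, 0 at an unadjusted p under 0.05), against 0.00632% of all genes, with Angpt2 at -0.46 ± 0.41 and Kdr at 0.59 ± 0.65.

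Within the IL-10-Fc and BF10 groups the members also differed by the code in the sample titles, a comparison that was added after the values were seen. The codes C2, C2 and C4 belong to IL-10-Fc 1, IL-10-Fc 2 and BF10 1 and the codes C6, C6 and C7 to the others, and their meaning is not given in the sources used here. The codes cross all 4 groups: C5 to C7 mark 1 library each of Ctrl-IgG, aCSF1R and IL-10-Fc and 2 of BF10, and C6 occurs in 3 groups. With treatment as a term, limma called 6 members higher in the libraries coded C6 and C7: Kdr by 1.36 ± 0.12, Cdh5 by 1.27 ± 0.20, Flt1 by 1.22 ± 0.19, Flt4 by 1.16 ± 0.14, Tie1 by 1.11 ± 0.20 and Pecam1 by 0.85 ± 0.14 on the log2 scale, with adjusted p from 0.00172 to 0.00636. Emcn was called lower at -1.32 ± 0.14 (limma adjusted p = 0.00199), and Angpt2, Vwf and Tek were not called, at 0.37 ± 0.26, 0.33 ± 0.35 and 0.11 ± 0.15. The calls stand beside 53.5% called over all genes, of which 74.6% were higher (48.2% with median-of-ratios scaling and 89.0% with TPM), and the median difference was 0.98 over the members and 0.43 over all genes.

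In the same 6 libraries the code coincides with the mitochondrial share, which was 6.57% to 9.04% in the libraries coded C2 and C4 and 2.99% to 3.12% in those coded C6 and C7, so code and share cannot be told apart. With median-of-ratios scaling, which moved the median of all genes from 0.43 to 0.04, Kdr (1.02), Flt4 (0.96), Cdh5 (0.77), Flt1 (0.76) and Tie1 (0.71) stayed called higher and Emcn (-1.88) lower. Over all genes 7612 of 15685 were called in that fit, so calls were common. Pecam1 was then at 0.31 (limma adjusted p = 0.163), and Tek, Angpt2 and Vwf turned to -0.22, -0.12 and -0.10.

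The ligands of these receptors had patterns of their own. Of 8 VEGF and angiopoietin ligand genes beside Angpt2, 7 were tested, and Pgf, encoding placental growth factor, was the only one called in IL-10-Fc and in BF10 against Ctrl-IgG, where 33.7% and 24.9% of all genes were. Pgf was 3.54, 1.35 and 2.58 FPKM with Ctrl-IgG, 2.63, 2.63 and 5.81 with aCSF1R, 8.84, 6.59 and 16.3 with IL-10-Fc, and 10.2, 9.53 and 5.47 FPKM with BF10, with log2 differences of 1.69 ± 0.40 (limma adjusted p = 0.00811) and 1.44 ± 0.40 (0.0224) from Ctrl-IgG. Vegfa was 12.8, 28.5 and 43.4 FPKM in the 3 Ctrl-IgG libraries in ascending order and 10.1 to 53.6 FPKM over all 12, with a difference of 0.43 ± 0.62 in BF10 against Ctrl-IgG. Vegfb stayed between 13.0 and 40.6 FPKM and Vegfc between 3.90 and 8.13 FPKM, and neither was called in any of the treatment comparisons. Angptl4 was 7.15 to 20.4 FPKM, and Angpt4 was the gene left out of the tests, at 0.04 to 1.59 FPKM.

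Angpt1, the ligand that opposes Angpt2, was 11.5, 23.2 and 9.34 FPKM with Ctrl-IgG, 20.7, 23.2 and 23.9 with aCSF1R, 13.4, 14.5 and 2.09 with IL-10-Fc, and 8.55, 1.72 and 4.28 FPKM with BF10. Angpt1 was called lower in BF10 than in aCSF1R at -2.19 on the log2 scale (limma adjusted p = 0.0259), as was Vegfd at -1.09 (0.0223). No BF10 library reached the lowest aCSF1R value of either gene. In that comparison 25.0% of all genes were called and 55.7% had groups that did not overlap. Vegfd was also called lower in IL-10-Fc than in aCSF1R, at -1.60 (limma adjusted p = 0.00223), and Angpt1 was not, at -1.42 (0.0869). Of all genes 42.2% were called there. Within IL-10-Fc and BF10, Angpt1 was called lower in the libraries coded C6 and C7 at -1.80 (limma adjusted p = 0.00846), and Vegfa was called higher at 1.72 (0.00393). Vegfa was 10.1, 11.6 and 19.1 FPKM in the libraries coded C2 and C4 and 53.6, 51.9 and 40.8 FPKM in the others, high in the same 3 libraries as Kdr and Flt1. Of 10 genes of the response to hypoxia, 5 were called higher and 1 lower in that comparison, with a median of 0.91, where 53.5% of all genes were called and their median was 0.43.

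Of 26 further endothelial genes, 23 were tested. In BF10 against Ctrl-IgG limma called 9 higher and 1 lower, with a median of 0.78 against -0.12 over all genes, of which 24.9% were called, and in IL-10-Fc against Ctrl-IgG it called 3 higher (Clec14a, Icam2 and Sox18) and 2 lower (Cd34 and Ramp2), with a median of 0.27 against -0.39 over all genes, of which 33.7% were called, so these 5 of 23 lay below the background. No gene of the list (0 of 23) was called in aCSF1R against Ctrl-IgG or in BF10 against IL-10-Fc, where the medians were 0.46 and 0.61. Eng, a TGF-beta co-receptor of growing vessels, was 2.18 higher on the log2 scale in BF10 than in Ctrl-IgG (limma adjusted p = 0.0253). Cd34, a surface mucin of endothelium and also of stem and stromal cells, was the highest of the list and ran against it, at 84.4 to 145.0 FPKM on the Ctrl-IgG and aCSF1R side and 11.99 to 35.0 FPKM on the other (log2 difference from Ctrl-IgG of -3.10 and -2.33, limma adjusted p = 2.17e-05 and 0.000145). Egfl7, a matrix protein secreted by endothelium, was 19.3 to 62.0 FPKM over the 12 libraries.

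Tip cells lead a vessel sprout. Of 14 of their genes tested, Angpt2 included, limma called 6 higher and 0 lower for BF10 against Ctrl-IgG, and 4 higher and 1 lower for IL-10-Fc against Ctrl-IgG, with medians of 1.00 and 0.40. Over all genes 24.9% and 33.7% were called, so the 5 of 14 in IL-10-Fc were near the background. The largest were Unc5b, a netrin receptor of tip cells, at 2.69 (limma adjusted p = 0.00188) and Pdgfb, which recruits pericytes, at 2.68 (0.00458) in BF10. Pdgfb ranged from 0.66 to 3.89 FPKM on the Ctrl-IgG and aCSF1R side and from 6.02 to 32.6 FPKM on the other, without overlap. The share of all genes that separate the sides was not computed. In comparisons of single groups across the sides 37.3% to 56.1% of all genes did not overlap. Col4a1, Plaur and Col4a2, which encode basement membrane collagens and the urokinase receptor, were the most abundant genes of the list, and Col4a1 was 37.0 to 135.3 FPKM over the 12 libraries. Dll4 and Esm1, further tip cell genes that are outside the rule for named genes, stayed at 0.43 to 4.05 and 0.48 to 2.73 FPKM. Of the VEGF and Notch co-receptors, 9 of 10 were tested and Efnb2, the arterial ephrin, was called in IL-10-Fc (1.58) and BF10 (2.39) against Ctrl-IgG, and Notch4 in BF10 (1.11).

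The lists of inflamed and venous and of lymphatic endothelium were short. Of 6 tested genes of inflamed and venous endothelium, Vcam1 was called higher at 1.15 and Nr2f2, a regulator of venous identity, lower at -1.97 in IL-10-Fc against Ctrl-IgG, and 0 were called in BF10 against Ctrl-IgG, where 33.7% and 24.9% of all genes were. Sele, a selectin of activated endothelium, was at most 1.19 FPKM. The defining lymphatic gene Prox1 was at most 0.29 FPKM in all libraries, where Flt4 was 0.17 to 2.47 FPKM and Lyve1 0.28 to 4.76 FPKM. Of the 6 lymphatic genes tested, Pdpn was called higher and Sema3a lower in both IL-10-Fc and BF10 against Ctrl-IgG, and neither gene is confined to lymphatic vessels.

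Pericytes and vascular smooth muscle wrap vessels. Of 13 genes tested, 4 were called higher in IL-10-Fc and 5 in BF10 against Ctrl-IgG, with medians of 0.61 and 1.13, where 33.7% and 24.9% of all genes were called, and Tagln had the largest difference at 3.50 and 2.91. The summed level of this list was 40.7 to 116.5 FPKM with Ctrl-IgG, 92.0 to 121.6 with aCSF1R, 201.0 to 366.2 with IL-10-Fc and 214.1 to 238.2 with BF10. Acta2 and Tagln, its most abundant genes, are also made by fibroblasts, whose list summed to 174.7 to 797.4 FPKM with Ctrl-IgG, 618.5 to 703.1 with aCSF1R, 2064 to 2761 with IL-10-Fc and 1866 to 2611 with BF10. In the libraries coded C6 and C7, 6 of the 13 were called higher in limma, with Pdgfrb at 1.86 and Myh11 at 1.05, below the 53.5% called over all genes.

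Macrophages are the cells the antibody targets, and some of them express Pecam1, Flt1 and Tek. The summed level of 10 macrophage genes was 256.7 to 277.2 FPKM with aCSF1R, 430.2 to 792.3 with Ctrl-IgG, 810.3 to 1284 with IL-10-Fc and 1058 to 1173 with BF10. Mean Flt1 (6.05 and 4.33 FPKM) and mean Tek (1.47 and 1.04) were also highest in BF10 and IL-10-Fc, but lowest in Ctrl-IgG (2.06 and 0.62). Mean Pecam1, like Cdh5, was highest in BF10 and aCSF1R, at 22.0 and 17.7 FPKM. Csf1r itself was 13.1, 79.1 and 67.0 FPKM with BF10 and 14.1, 11.7 and 48.5 in IL-10-Fc, high in the same libraries as Kdr, Flt1 and Pecam1, and its difference between title codes was 2.11 (limma adjusted p = 0.00172). The macrophage list did not follow Csf1r as a whole. By title code 4 of its 10 genes were called higher and 1 (C1qc) lower, with a median of 0.09. Over all genes 53.5% were called and the median was 0.43. The adipocyte list summed to 41.2 to 592.5 FPKM in IL-10-Fc and 236.7 to 491.5 with BF10 against 42.7 to 67.4 in Ctrl-IgG. The part of macrophages, adipocytes or fibroblasts in the values of the 10 genes was not tested.

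The keratinocyte list summed to 2112 FPKM in Ctrl-IgG 3 and to at most 2111 FPKM in aCSF1R, against 18.3 to 37.0 FPKM in IL-10-Fc and BF10. It summed to 2.49, 4.97 and 3.33 FPKM in Ctrl-IgG 1, Ctrl-IgG 2 and aCSF1R 3. Krt5, Krt1 and Lor were at or below 2.38 FPKM in the 9 libraries of low sum. Krt14 of the same list was 12.2 to 31.7 FPKM in IL-10-Fc and BF10. Within Ctrl-IgG, the library that held this RNA also had the highest level of every member (10 of 10), for example Vwf at 6.05 against 1.28 and 1.28 FPKM. In aCSF1R the library without it, aCSF1R 3, had 12.9 FPKM of Cdh5 against 12.45 and 17.95 FPKM, and 7.01 FPKM of Angpt2, the highest of its group, but it was the lowest of the group for Vwf (3.30 FPKM), Kdr (2.35) and Tek (0.60). The part of surrounding mucosa and muscle in the Ctrl-IgG values was not tested.

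By a rule set on likeness, the 10 tested genes outside the members whose log2(FPKM + 1) correlated best with the mean z score of the members over the 12 libraries were Timp3 (Pearson r = 0.971), Robo4 (0.967), Shank3 (0.961), Mcam (0.960), Exoc3l2 (0.959), the complement gene C3 (0.959), Plvap (0.959), Cspg4 (0.955), Adcy4 (0.947) and Sox13 (0.946). Of these, Robo4 and Plvap belong to the list of further endothelial genes, and Plvap, which forms the diaphragms of fenestrated capillaries, was 5.57 to 44.2 FPKM. Among the members, which enter the score themselves, r was highest for Tie1 at 0.963, Flt4 at 0.940, Pecam1 at 0.939 and Cdh5 at 0.904, lower for Tek at 0.741, Vwf at 0.729 and Angpt2 at 0.618, and -0.04 for Emcn. The median r was 0.755 over the 23 further endothelial genes and 0.302 over all 15813. The 12 libraries share the differences in sex, strain and RNA composition given above, so these correlations are a description and carry no test.

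The gene models place Kdr (ENSMUSG00000062960) at chromosome 5, 75932827 to 75978458, and Flt1 (ENSMUSG00000029648) on the same chromosome at 147561604 to 147726011, both on the minus strand of GRCm38. Tie1 (ENSMUSG00000033191, minus strand) and Tek (ENSMUSG00000006386, plus strand) both lie on chromosome 4, at 118471191 to 118490061 and 94739289 to 94874976. Emcn (ENSMUSG00000054690) lies on chromosome 3 at 137341067 to 137432185, and Cdh5 (ENSMUSG00000031871) and Angpt2 (ENSMUSG00000031465) on chromosome 8 at 104101625 to 104144511 and 18690263 to 18741562. The 3 VEGF receptor genes have representative transcripts of 30 exons each, of 5924 bases for Kdr, 6895 for Flt1 and 6255 for Flt4. Transcript length ran from 2588 bases for Emcn to 8834 bases for Vwf, so a given FPKM rests on fewer fragments for Emcn than for Vwf.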

How the data were processed

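Per the labels, RNA of tumour tissue was extracted with TRIzol, made into stranded mRNA libraries and sequenced on an Illumina NextSeq instrument. The authors deposited FPKM values for 55401 genes in each of 12 libraries, without scaling between libraries, and the submitters' processing notes name STAR 2.7.5a, RSEM 1.3.3, DESeq2 1.30.0 and the builds mm10 and GRCm38. The deposited tables of the authors' DESeq2 comparisons (fold changes and p-values) were not used here. FPKM carries no counts, so depth and counting error are unknown and no count model was fitted.

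Groups came from the treatment label of each sample, and replicate numbers follow sample order and name libraries only. The labels do not tie libraries to animals, so p-values measure the spread between these samples. No libraries held identical values. The 15813 genes that reached 1 FPKM in 3 or more libraries were fitted as log2(FPKM + 1) with limma 3.58.1 (eBayes with trend) in R 4.3.3, all 12 libraries in one model. A fold change on that scale understates the change of low genes. Calls required a limma p, adjusted by the Benjamini-Hochberg method over all tested genes, under 0.05 and a change of 1.5-fold or more. The comparison by title code used the 6 IL-10-Fc and BF10 libraries with treatment as a term. The fit was tested on simulated data.

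The 10 members and all lists were chosen with earlier results of these data known. Named were the members, in each list the 3 genes of highest mean and the 2 called genes of largest difference per comparison, all ligands, any gene called alone, and the 10 genes most like the members. Small sets of called genes are named in full. Csf1r, Dll4, Esm1, Sele, Prox1, Lyve1 and the markers of other cells were named outside this rule for their known roles. Positions came from GENCODE M21 (GRCm38) and promoter windows from RefSeq (GRCm38.p6). Alternatives were a pseudocount of 0.1, no filter, a mean of at least 5 FPKM, TPM and median-of-ratios scaling, no minimum fold, fits of 2 groups alone, covariates, and omission of libraries.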

Additional observations from a re-analysis of the deposited data

How the results depend on the processing

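For IL-10-Fc against Ctrl-IgG, where 1 member was called, 2 members were called with the FPKM sum as a covariate and 2 with median-of-ratios scaling (Emcn and Flt1 in both), 2 with the level of the further endothelial genes as a covariate (Cdh5 and Emcn), and 0 without the filter, 0 in a fit of the 2 groups alone (where 8 members were tested), and 0 without the 3 keratinocyte-rich libraries, an alternative added after seeing the data. With the count at 1, the called member was Tek with the muscle covariate and Flt1 without the libraries of high mitochondrial share. Leaving out 1 library gave 0 to 1. For BF10 against Ctrl-IgG, where 0 were called, the count was 6 with the FPKM sum, 2 with median-of-ratios, 1 with the endothelial covariate (Emcn), 3 with a muscle covariate (Flt1, Tek and Tie1), 1 without the keratinocyte-rich libraries (Tek), 4 without the libraries of high mitochondrial share, and 0 to 2 on leaving out 1 library. The endothelial covariate removes by construction what the members share, and turned the median of the members in this comparison from 0.68 to -0.20. Over all genes, median-of-ratios scaling called 5200 of 15685 for IL-10-Fc and 4302 of 15685 for BF10 against Ctrl-IgG. The shares of all genes called under the other alternatives are not given here. The counts above are therefore not a result about the members.

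For BF10 against aCSF1R the count went from 0 to 1 with the FPKM sum (Flt1), 1 with the endothelial covariate (Vwf), 1 with the muscle covariate (Tek) and 2 without the high-share libraries (Flt1 and Kdr). For IL-10-Fc against aCSF1R it went from 0 to 1 with the FPKM sum (Flt1), 1 with median-of-ratios (Emcn), 1 with the endothelial covariate (Cdh5), 1 with the title code as a term (Cdh5) and 1 without the high-share libraries (Flt1), and to 0 to 3 on leaving out 1 library. In the comparison by title code 7 members were called, and 3 of the 4 that passed a mean of 5 FPKM. Without the high-share libraries IL-10-Fc kept 1 library, and without the keratinocyte-rich ones aCSF1R kept 1, which is assumed to vary like the other groups. The cause of these changes was not tested. Over all genes, median-of-ratios scaling called 5967 of 15685 for IL-10-Fc against aCSF1R. The shares under the other alternatives to the comparisons with aCSF1R are not given here. The remaining alternatives left the counts of members called within 1.5 times the reported ones, and the counts of 0 for BF10 against IL-10-Fc, for aCSF1R against Ctrl-IgG and for the interaction stayed 0. Of 1370 single-gene values under an alternative, 1173 kept sign and call, 39 gained a call, 10 lost it and 148 that were called in neither fit changed sign; 0 called values reversed. No paired analysis was possible because the replicate numbers follow sample order and pair no samples. The title codes entered as a term in 2 classes, C1 to C4 and C5 to C7, and these classes cross the groups. FPKM gives no fragment counts, so the precision of single low values, such as those of Flt4 and Tek, is unknown.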
